A study of Mus musculus with 12 samples.

Results

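The genes of fatty acid synthesis and desaturation were followed across the livers of mice that lack Iqgap2 (KO) or carry it (wild type, WT). The 10 members, Fasn, Acaca, Acacb, Acly, Scd1, Scd2, Elovl6, Fads1, Fads2 and Srebf1, were chosen by name from the textbook pathway, and they are 10 of the 18193 genes named on the array. The rule used no measured value, but earlier results of these data were known when the members were chosen. They were measured by 25 of the 45037 probe sets tested, a probe set being a group of short probes that report on the same transcript. Every member was represented, and no filter on low values was applied.

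The study asked how the liver transcriptome changes as Iqgap2-/- mice, which lack a putative tumor suppressor, develop hepatocellular carcinoma (HCC). The groups were KO mice of 24 months, sampled from HCC tumors, KO mice of 6 months, sampled from normal liver, and WT mice of 6 and of 24 months, sampled from normal liver. Each group had 3 males, with 1 array per animal. All animals were of the 129J background and fed a regular diet, and the knockout was present in every cell of the animal and not in hepatocytes only. A bulk tumor or liver sample holds many cell types, so fewer cells of a type and less RNA per cell cannot be told apart in any result below.

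De novo lipogenesis turns surplus carbohydrate into fat in the cytosol of hepatocytes. Acly, ATP citrate lyase, splits citrate into acetyl-CoA, the carboxylases Acaca and Acacb make malonyl-CoA from it, and Fasn, fatty acid synthase, assembles palmitate. Elovl6 lengthens palmitate, the stearoyl-CoA desaturases Scd1 and Scd2 put the first double bond into saturated chains, and Fads1 and Fads2 desaturate polyunsaturated chains. Srebf1 encodes SREBP-1, the sterol regulatory element binding protein that drives many of these genes after insulin, and the pathway is known to be raised in many liver cancers. Mouse liver relies mainly on Scd1, while Scd2 is better known from brain and from liver around birth.

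The labels were checked with the targeted gene. On the brighter Iqgap2 probe set, the samples labelled KO 24 months tumor gave 12.15, 12.05 and 12.15 and those labelled KO 6 months 8.12, 8.68 and 8.07, in log2 intensity, while those labelled WT 6 months gave 8.38, 8.24 and 8.33 and those labelled WT 24 months 12.28, 12.30 and 11.92. Iqgap2 was therefore high in samples labelled as knockout tumors and low in samples labelled as young wild types, which goes against both labels, although whether these probes lie in the deleted part of the gene is not given in the sources used here. Afp, the fetal liver protein that marks many HCC, averaged 12.79 ± 0.66 in the samples labelled WT 6 months, 6.21 ± 0.09 in those labelled KO 24 months tumor, 6.74 ± 0.05 in those labelled KO 6 months and 6.55 ± 0.94 in those labelled WT 24 months (SD, n = 3 each). The arrays are therefore named by their labels throughout, the label in doubt is put on top of each difference, and any direction by age, genotype or tumor rests on labels that Iqgap2 contradicts. Among the other arrays, replicate 3 labelled WT 24 months stood apart. Its summed macrophage and Kupffer cell markers reached 15.46 on the log2 scale, and its value was below both of its group for 7 of the 10 members, by a median of -0.53 from their mean over all 10.

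The members were highest in the samples labelled WT 6 months. Taking for each gene the probe set with the highest mean (the brightest probe set), 8 of the 10 had their highest group mean there (27.3% of all 18193 genes did), and for 5 of them (Fasn, Acaca, Scd1, Scd2 and Elovl6) each of these 3 arrays lay above all 9 other arrays (7.29% of all genes). Srebf1 was the member with its lowest mean there. By label, the comparison with WT 24 months asks about age in WT livers and the comparison with KO 6 months about genotype in young livers. A difference was called at an adjusted p under 0.05 in limma (Benjamini-Hochberg over all probe sets), with no fold required. Against the samples labelled WT 24 months, 13 of the 25 probe sets were called higher (52%, with 4.96% of all probe sets called higher) and 0 were called lower, also at an unadjusted p under 0.05 (3.8% of all called lower). Against those labelled KO 6 months, 9 were called higher (36%, with 6.03% of all) and 1 lower (6.08% of all). Both comparisons use the same 3 samples labelled WT 6 months, so they are not independent. With the fold of 3 that the study required as well, 3 of 25 were called against labelled WT 24 months (1.65% of all probe sets), all of Scd2, and 6 against labelled KO 6 months (1.79%), of Scd2, Elovl6 and Acacb. In the remaining comparisons of groups 0 of 25 were called.

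**Figure D1:**
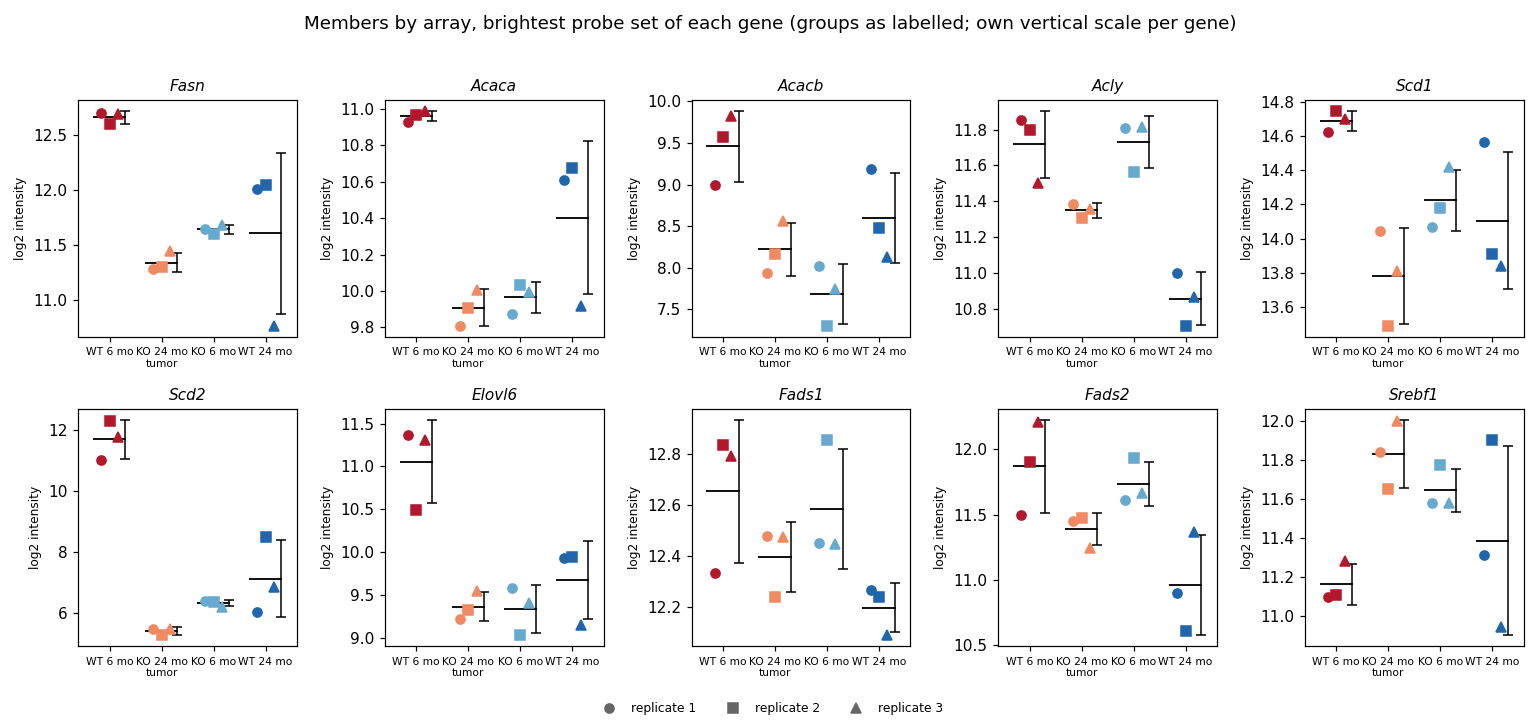
Log2 intensity of the brightest probe set of each member (vertical axis, own scale for each gene) in the 12 arrays, grouped by label along the horizontal axis, with the symbol giving the replicate number, the bar the group mean and the whisker the SD of 3 arrays. The samples labelled WT 6 months lie above all others for Fasn, Acaca, Scd1, Scd2 and Elovl6, and replicate 3 labelled WT 24 months is the lowest of its group for most genes.

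Acly, which supplies the acetyl-CoA, differed between the samples labelled WT 6 months and WT 24 months but hardly between the first of these and those labelled KO 6 months. The brightest probe set read 11.85, 11.80 and 11.50 in the samples labelled WT 6 months, 11.38, 11.30 and 11.36 in those labelled KO 24 months tumor, 11.81, 11.56 and 11.82 in those labelled KO 6 months, and 10.998, 10.70 and 10.87 in those labelled WT 24 months. The 6-month groups overlapped, and the 3 samples labelled WT 24 months lay below all others. The difference of labelled WT 6 months from labelled WT 24 months was 0.86 (SE 0.12, a fold of 1.82, adjusted p = 0.0010), and 3 of the 6 Acly probe sets were called. From labelled KO 6 months it was -0.01 (95% interval -0.28 to 0.25). The member probe set called lower in that comparison was a dim Acly probe set, at 3.76, 3.55 and 3.66 in the samples labelled WT 6 months and 4.58, 4.08 and 4.12 in those labelled KO 6 months (difference -0.60, adjusted p = 0.013). Its call was lost without replicate 2 labelled WT 6 months. It did not move with the 3 bright probe sets of the gene, and 1 other Acly probe set lay below without overlap, by -0.12, and was not called.

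The carboxylases were called against the samples labelled KO 6 months. Acaca, the cytosolic enzyme that feeds synthesis, read 10.93, 10.97 and 10.99 in the samples labelled WT 6 months, 9.81, 9.91 and 10.01 in those labelled KO 24 months tumor, 9.87, 10.03 and 9.995 in those labelled KO 6 months, and 10.61, 10.68 and 9.92 in those labelled WT 24 months. Replicate 3 labelled WT 24 months sat with the arrays labelled KO, and replicates 1 and 2 of that label sat between. The difference was 1.00 (SE 0.17, a fold of 1.99, adjusted p = 0.0027) from labelled KO 6 months and 0.56 (SE 0.17, adjusted p = 0.063) from labelled WT 24 months. The difference from labelled WT 24 months was called without replicate 1 (0.66, adjusted p = 0.0499) or replicate 2 (0.70, adjusted p = 0.032) of that label, with 1 probe set per gene (0.56, adjusted p = 0.0498) and with dim probe sets removed (0.56, adjusted p = 0.048). Without replicate 3 of that label the difference fell to 0.32 and was not called, and only 4 of 20 alternatives gave a call. By contrast, averaging both Acaca probe sets ended the call against labelled KO 6 months (0.66, adjusted p = 0.052). Acacb, the mitochondrial form whose malonyl-CoA restrains fat oxidation, read 8.99, 9.57 and 9.83 in the samples labelled WT 6 months, 7.94, 8.17 and 8.56 in those labelled KO 24 months tumor, 8.02, 7.30 and 7.75 in those labelled KO 6 months, and 9.18, 8.47 and 8.13 in those labelled WT 24 months. It overlapped with labelled WT 24 months (difference 0.87, adjusted p = 0.10) and not with labelled KO 6 months (1.77, SE 0.30, a fold of 3.42, adjusted p = 0.0025). Without replicate 1 labelled WT 24 months, Acacb was called against that label as well (1.16, adjusted p = 0.028). The other probe sets of both genes were dim, between 4.58 and 6.80, and were not called.

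Fasn, the synthase itself, was about 2-fold higher in the samples labelled WT 6 months than in either comparison group, by the means of all 3 arrays per label. It read 12.71, 12.60 and 12.69 in the samples labelled WT 6 months, 11.28, 11.30 and 11.44 in those labelled KO 24 months tumor, 11.64, 11.60 and 11.68 in those labelled KO 6 months, and 12.01, 12.05 and 10.76 in those labelled WT 24 months. Groups of close replicates contrast with the spread of labelled WT 24 months, whose replicate 3 is the lowest of all 12. The difference was 1.06 (SE 0.26, a fold of 2.08, adjusted p = 0.027) from labelled WT 24 months and 1.02 (SE 0.26, a fold of 2.03, adjusted p = 0.026) from labelled KO 6 months. Without replicate 3 labelled WT 24 months, the difference from that label fell to 0.64 and was still called. Both calls made with all 12 arrays were lost when any 1 of the samples labelled WT 6 months was left out, and the call against labelled KO 6 months was also lost without any 1 array of that label (difference between 1.00 and 1.09, adjusted p between 0.062 and 0.079). These fits share 1 spread over all 4 groups. The SD of Fasn was 0.06 in labelled WT 6 months, 0.09 in labelled KO 24 months tumor, 0.04 in labelled KO 6 months and 0.73 in labelled WT 24 months. Over all alternatives, adjusted p in limma against labelled KO 6 months ran from 2.5e-05 to 0.079. With only the groups compared in the fit, adjusted p was 0.18 against labelled WT 24 months.

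Elovl6, the elongase that acts on the product of Fasn, was called in both comparisons. It read 11.37, 10.50 and 11.31 in the samples labelled WT 6 months, 9.22, 9.33 and 9.55 in those labelled KO 24 months tumor, 9.58, 9.03 and 9.41 in those labelled KO 6 months, and 9.93, 9.95 and 9.15 in those labelled WT 24 months. Replicate 2 labelled WT 6 months was the lowest of its label and still above the other 9 arrays. The difference was 1.38 (SE 0.26, a fold of 2.60, adjusted p = 0.0066) from labelled WT 24 months and 1.72 (SE 0.26, a fold of 3.28, adjusted p = 0.0015) from labelled KO 6 months, where all 3 Elovl6 probe sets were called. With only the groups compared, adjusted p against labelled WT 24 months was 0.075. The interaction of Elovl6, whether its change with age differed by genotype as labelled, was 1.41 (adjusted p = 0.072), and 1.69 (adjusted p = 0.020) without replicate 2 labelled WT 6 months.

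The upstream sequences of Fasn, Acly and Elovl6 are shown because these are the synthesis genes called against the samples labelled WT 24 months that have an entry in the promoter table used. They are the 250 bases before the annotated start, from RefSeq on GRCm38.p6, printed 5′ to 3′ on the strand of the gene. Capitals mark matches on either strand to the NF-Y box CCAAT and the GC box GGGCGG, the sites of factors known to work with SREBP-1, or to the E-box CACGTG and the SREBP core TCACNCCAC. The windows are chr11:120824548-120824797 (minus strand) for Fasn, chr11:100528001-100528250 (minus strand) for Acly and chr3:129532136-129532385 (plus strand) for Elovl6.
Fasn: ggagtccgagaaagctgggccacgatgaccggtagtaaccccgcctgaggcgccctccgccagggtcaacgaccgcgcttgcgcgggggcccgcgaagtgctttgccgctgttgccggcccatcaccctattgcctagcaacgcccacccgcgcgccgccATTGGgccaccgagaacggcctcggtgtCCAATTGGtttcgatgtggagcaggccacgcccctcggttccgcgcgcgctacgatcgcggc
Acly: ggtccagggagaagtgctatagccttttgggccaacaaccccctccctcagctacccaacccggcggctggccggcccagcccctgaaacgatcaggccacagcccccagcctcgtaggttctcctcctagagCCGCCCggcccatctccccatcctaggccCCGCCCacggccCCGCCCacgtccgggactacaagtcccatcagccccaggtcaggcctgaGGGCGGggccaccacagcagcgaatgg
Elovl6: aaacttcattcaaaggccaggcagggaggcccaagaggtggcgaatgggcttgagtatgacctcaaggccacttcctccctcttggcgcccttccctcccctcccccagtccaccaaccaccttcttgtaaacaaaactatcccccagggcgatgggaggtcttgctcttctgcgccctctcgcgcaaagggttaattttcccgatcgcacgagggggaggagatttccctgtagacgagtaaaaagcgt
The Fasn window held 3 CCAAT matches, the nearest starting 59 bases before the start and overlapping the match at 62. The Acly window held 4 GC boxes, and the Elovl6 window held no match to any of the 4 motifs. Entries were found for 7 of the 10 members, with 9 windows in all since Srebf1 had 3, and not for Scd1, Scd2 and Fads1. CCAAT was found in 4 of the 9 windows (33.8% of all 32851 windows of this length) and the GC box in 4 (32.7%). TATAAA was found in 1 (12.4%, in Acacb, whose window is not printed), and the E-box (6.02%) and SREBP core (1.05%) in 0. A match is a run of letters and not a measured site.

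Scd2 had the largest difference among the members. Its brightest probe set read 11.03, 12.30 and 11.78 in the samples labelled WT 6 months, 5.48, 5.27 and 5.48 in those labelled KO 24 months tumor, 6.38, 6.38 and 6.21 in those labelled KO 6 months, and 6.02, 8.49 and 6.87 in those labelled WT 24 months. No other array came near those labelled WT 6 months, and the highest of the rest was replicate 2 labelled WT 24 months, which also had the highest Afp of its label (7.62). The difference was 4.58 (SE 0.49, a fold of 23.9, adjusted p = 1.5e-04) from labelled WT 24 months and 5.38 (SE 0.49, a fold of 41.7, adjusted p = 3.8e-05) from labelled KO 6 months. The 2 other Scd2 probe sets gave differences of 4.49 and 3.21 from labelled WT 24 months, and of 4.91 and 3.38 from labelled KO 6 months, all called. All 3 were also the only member probe sets for which the change with age differed between the genotypes as labelled, a difference of differences that keeps its value if the label WT 6 months is exchanged with KO 24 months tumor. It was 3.67, 4.27 and 3.08, with adjusted p of 0.014, 3.5e-04 and 3.1e-05 (3 of 25 called higher, with 1.73% of all probe sets, and 0 lower, with 1.42%).

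Scd1, the main desaturase of adult liver, differed far less. Its brightest probe set read 14.63, 14.74 and 14.70 in the samples labelled WT 6 months, 14.05, 13.49 and 13.81 in those labelled KO 24 months tumor, 14.07, 14.18 and 14.42 in those labelled KO 6 months, and 14.57, 13.91 and 13.84 in those labelled WT 24 months. The samples labelled WT 6 months lay above the rest, but the differences of 0.58 (adjusted p = 0.093) from labelled WT 24 months and 0.47 (adjusted p = 0.15) from labelled KO 6 months were not called. The first of these was called without replicate 1 labelled WT 24 months (0.81, adjusted p = 0.010) and with both Scd1 probe sets averaged (0.99, adjusted p = 0.038). The second was called with only the groups compared in the fit (0.47, adjusted p = 0.040). This probe set was close to the highest value in the files (15.32). The dimmer probe set, at 12.21, 11.91 and 11.67 in the samples labelled WT 6 months and 11.61, 9.98 and 10.04 in those labelled WT 24 months, was called in that comparison (1.39, SE 0.37, a fold of 2.61, adjusted p = 0.040) and not against labelled KO 6 months (0.86, adjusted p = 0.17). In the RefSeq order 1 protein-coding gene lies between Scd1 and Scd2, and 0 lie between Fads1 and Fads2. The desaturase paralogs are similar in sequence, and how far their probes share targets was not tested.

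**Figure D2:**
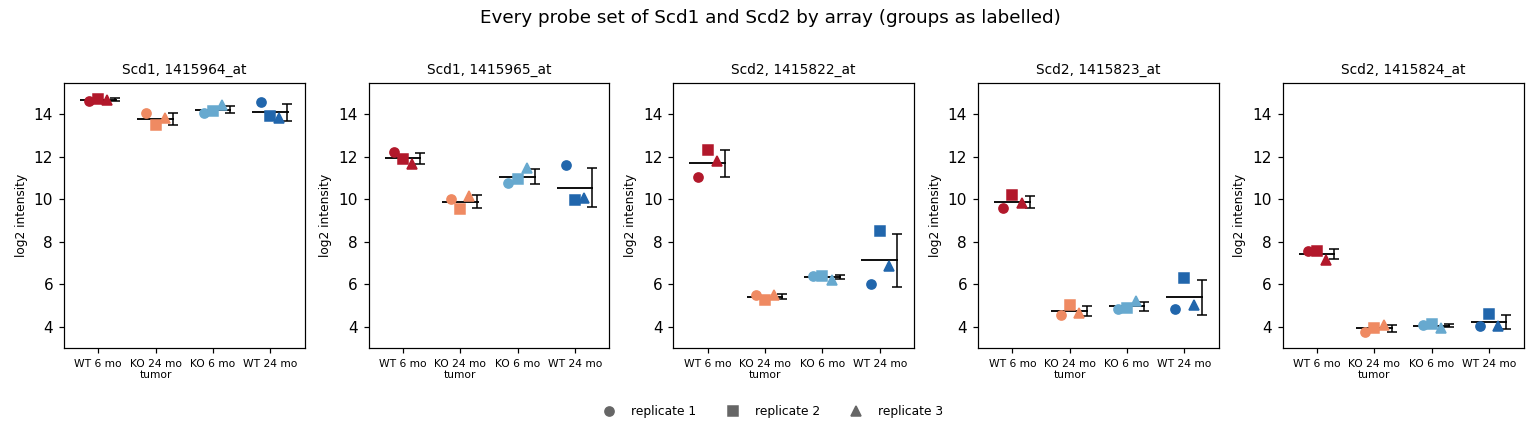
Log2 intensity (vertical axis, the same scale in all panels) of the 2 probe sets of Scd1 and the 3 of Scd2 in the 12 arrays, grouped by label, with bars for group means and whiskers for the SD of 3 arrays. All 3 Scd2 probe sets set the samples labelled WT 6 months apart, with replicate 2 labelled WT 24 months next, while Scd1 is high in every array.

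Fads2 and Fads1, the delta-6 and delta-5 desaturases of polyunsaturated fatty acids, were lowest in the samples labelled WT 24 months. Fads2 read 11.50, 11.90 and 12.21 in the samples labelled WT 6 months, 11.45, 11.47 and 11.25 in those labelled KO 24 months tumor, 11.61, 11.93 and 11.66 in those labelled KO 6 months, and 10.90, 10.61 and 11.37 in those labelled WT 24 months. It was called against labelled WT 24 months in all 3 probe sets (0.91, SE 0.21, a fold of 1.88, adjusted p = 0.017 for the brightest), and it overlapped with labelled KO 6 months (0.13, 95% interval -0.32 to 0.59). The call was lost without replicate 2 or 3 labelled WT 6 months or replicate 2 labelled WT 24 months (0.89, 0.74 and 0.74, adjusted p between 0.052 and 0.062) and with only the groups compared (adjusted p = 0.12). Fads1 read 12.33, 12.84 and 12.80 in the samples labelled WT 6 months, 12.48, 12.24 and 12.47 in those labelled KO 24 months tumor, 12.45, 12.86 and 12.45 in those labelled KO 6 months, and 12.26, 12.24 and 12.09 in those labelled WT 24 months. The samples labelled WT 6 months lay above those labelled WT 24 months without overlap, yet neither Fads1 probe set was called (0.46, adjusted p = 0.10, and 1.01, adjusted p = 0.074). Without replicate 1 labelled WT 6 months the brighter was called (0.62, adjusted p = 0.026). From labelled KO 6 months its difference was 0.07 (95% interval -0.27 to 0.41).

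Srebf1, the transcription factor, ran opposite to most of the enzymes but was not called. It read 11.10, 11.10 and 11.28 in the samples labelled WT 6 months, 11.84, 11.65 and 12.00 in those labelled KO 24 months tumor, 11.58, 11.77 and 11.58 in those labelled KO 6 months, and 11.31, 11.90 and 10.94 in those labelled WT 24 months. The samples labelled WT 6 months lay below all samples labelled KO and overlapped with those labelled WT 24 months. The difference was -0.48 (95% interval -0.91 to -0.05, adjusted p = 0.15) from labelled KO 6 months and -0.22 (adjusted p = 0.62) from labelled WT 24 months. The -0.48 was called without replicate 2 labelled WT 24 months (adjusted p = 0.035) and with only the groups compared (adjusted p = 0.026). The array reports the summed transcript, so the SREBP-1a and SREBP-1c forms and the processing of the protein were not measured.

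With the samples labelled KO 24 months tumor on top, 0 of the 25 probe sets were called in limma in either direction, against labelled WT 24 months (7 at an unadjusted p under 0.05, where 15.3% of all probe sets were, with 0.122% of all called higher and 0.115% lower) and against labelled KO 6 months (8 at an unadjusted p under 0.05, where 6.11% were, with 0.0178% called higher and 0.00222% lower). Against labelled KO 6 months, 11 probe sets lay below without overlap (44%, with 7.36% of all probe sets) and 1 above (7.28% of all), the lower ones from Fasn, Acly, Scd1, Scd2 and Fads2. Acly gave more of these than any other gene, some of them dim, so they are not 11 separate genes. The share by the brightest probe set of each gene was not computed over all genes, so no count by gene is given. The largest of the lower differences was that of the dimmer Scd1 probe set, at 10.01, 9.54 and 10.15 in the samples labelled KO 24 months tumor and 10.78, 10.95 and 11.46 in those labelled KO 6 months (-1.17, 95% interval -1.98 to -0.35, adjusted p = 0.65). Against labelled WT 24 months the difference of Scd2 was -1.72 (95% interval -2.79 to -0.64, adjusted p = 0.15) and that of Acly 0.49 (0.23 to 0.76, adjusted p = 0.12). Without replicate 3 labelled WT 24 months, Fasn (-0.69, adjusted p = 0.019) and Acaca (-0.74, adjusted p = 0.015) were called lower against that label, and without replicate 1 of that label Scd2 was (-2.27, adjusted p = 0.026).

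**Figure D3:**
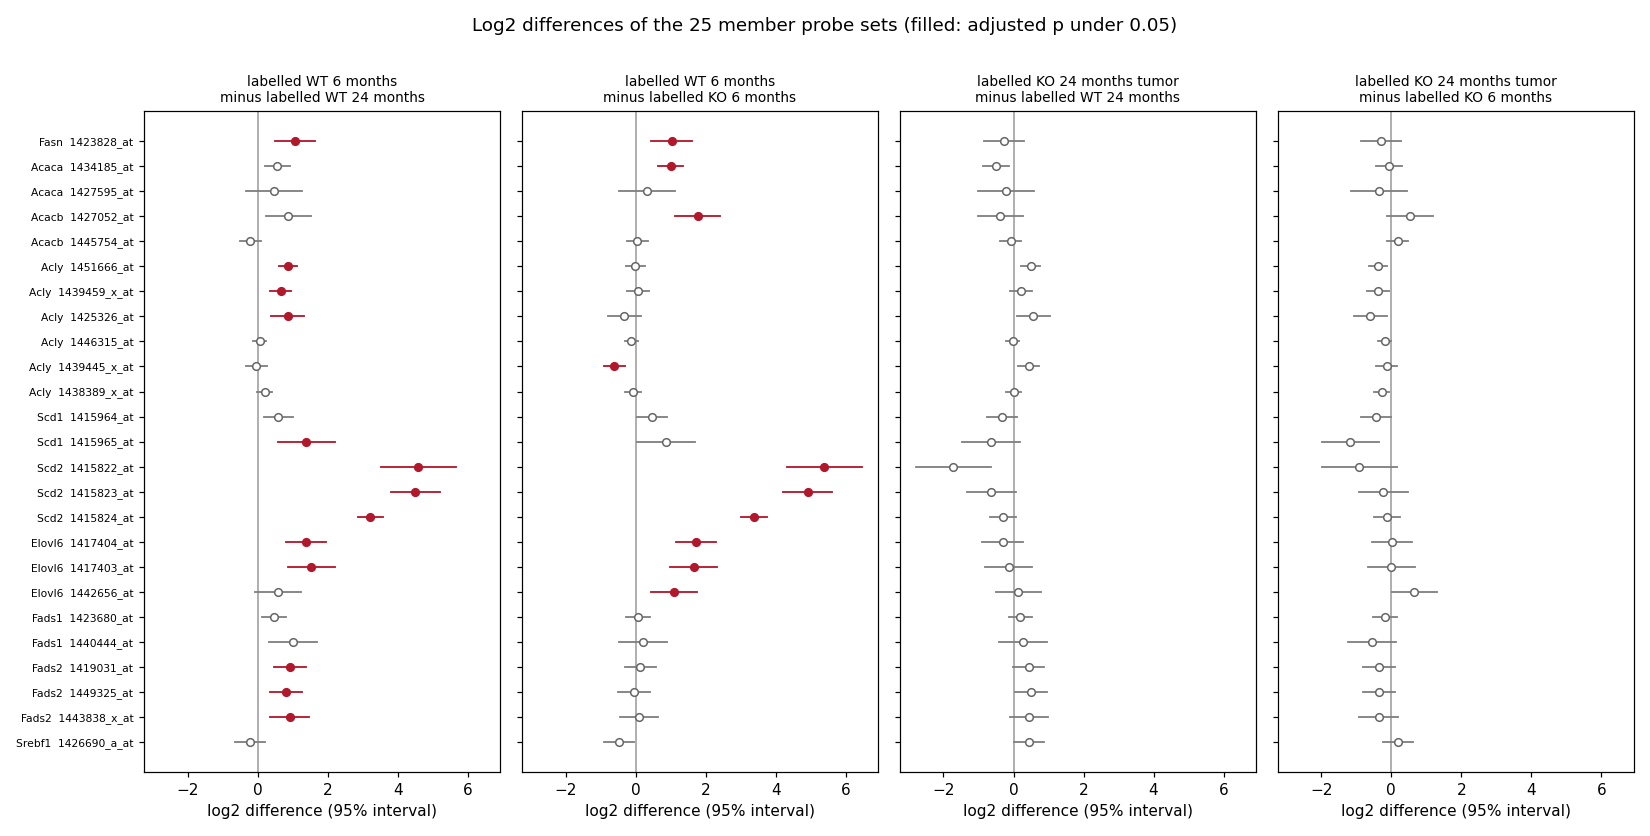
Log2 difference (horizontal axis) with its 95% interval for each of the 25 member probe sets (rows) in 4 comparisons (panels), each titled with the label on top of the difference first. Filled points passed an adjusted p of 0.05 in limma. In the panels with the samples labelled WT 6 months on top, 13 and 10 probe sets are filled, and in the panels with those labelled KO 24 months tumor on top 0 are.

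The median difference of the 25 member probe sets was 0.85 for labelled WT 6 months against labelled WT 24 months and 0.20 against labelled KO 6 months, where the median of all probe sets was 0.00 and -0.04. For labelled KO 24 months tumor it was -0.02 against labelled WT 24 months and -0.27 against labelled KO 6 months (all probe sets 0.05 and 0.00). By the brightest probe set of each of the 10 genes, the medians were 0.86 and 0.73 for labelled WT 6 months, and -0.29 and -0.25 for labelled KO 24 months tumor, in the same order of comparisons. Of the 25, 19 had a mean above that of the median probe set and 6 were dimmer. The count against labelled WT 24 months depended on single arrays. With replicate 2 or replicate 3 labelled WT 6 months left out it was 7 and 8 (4.01% and 4.24% of all probe sets), and with only the 2 groups compared in the fit it was 4 (1.92% of all). By genes it was 5 of 10 (6.37% of all genes called higher). It was 3 when either of those arrays was left out (5.28% and 5.46% of all genes), 2 with only the groups compared (2.46%) and 8 without replicate 1 labelled WT 24 months (5.39%).

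The genes around the pathway were taken from lists of regulators, of enzymes supplying precursors and NADPH, of other elongases and desaturases with related enzymes, and of genes that control the carboxylases. They were counted by the brightest probe set of each gene. Counted so, 6.37% of all genes were called higher and 5.39% lower against labelled WT 24 months, and 7.48% higher and 8.14% lower against labelled KO 6 months. Among enzymes of precursor and NADPH supply, 4 of 9 measured were higher and 0 lower against labelled WT 24 months and the same counts held against labelled KO 6 months. They were Pgd, of the pentose phosphate pathway (1.14 and 1.24), Cs, citrate synthase (1.33 and 1.13), Acss2, which makes acetyl-CoA from acetate (1.86 and 0.96), and Tkt, transketolase (0.60 and 0.63). The median over the list was 0.60 against labelled WT 24 months and 0.12 against labelled KO 6 months, beside -0.01 and -0.05 for all genes.

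The list of other elongases and desaturases also held further enzymes of the elongation cycle (Hsd17b12, Tecr and the Hacd genes) and Aacs, Mcat and Oxsm. Of the genes on it, 5 of 17 were higher and 0 lower against labelled WT 24 months, and 5 were higher and 1 lower against labelled KO 6 months. Elovl7, an elongase of saturated chains, had the largest difference of those called (3.36 from labelled WT 24 months and 3.32 from labelled KO 6 months, adjusted p = 4.0e-05 and 3.7e-05). Hacd2 and Hacd3, dehydratases of the elongation cycle, were higher in both (1.57 and 1.37 for Hacd2, 0.68 and 0.73 for Hacd3), as was Fads3, the neighbor of Fads2 (1.37 and 1.21). Hacd1 was called higher against labelled WT 24 months (0.77) and Elovl1 against labelled KO 6 months (0.36), where Elovl2, which elongates polyunsaturated chains, was lower (-0.85). The list's median was 0.68 and 0.30.

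The regulators did not move as a block. Of 15 measured, 2 were higher and 0 lower against labelled WT 24 months, and 3 were higher and 3 lower against labelled KO 6 months. Pparg, the nuclear receptor that drives fat storage in adipocytes, was higher by 3.06 (adjusted p = 2.0e-05) and 2.75 (adjusted p = 3.9e-05), and Mbtps2, a protease that releases SREBP from the membrane, by 0.80 and 0.98. Against labelled KO 6 months Srebf2, the cholesterol-directed relative of Srebf1, was also higher (0.64), while Scap, the SREBP escort (-0.44), Mlx, the partner of the carbohydrate response factor (-0.62), and Ppargc1b, a coactivator of SREBP-1 (-1.63), were lower. Of 7 genes controlling carboxylase activity and malonyl-CoA disposal, Prkab1, a subunit of the AMP-activated kinase that inhibits the carboxylases, was the only one called, lower in both (-0.82 and -0.76). The medians were 0.03 and -0.28 for regulators, and -0.10 and -0.32 for the carboxylase genes.

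**Figure D4:**
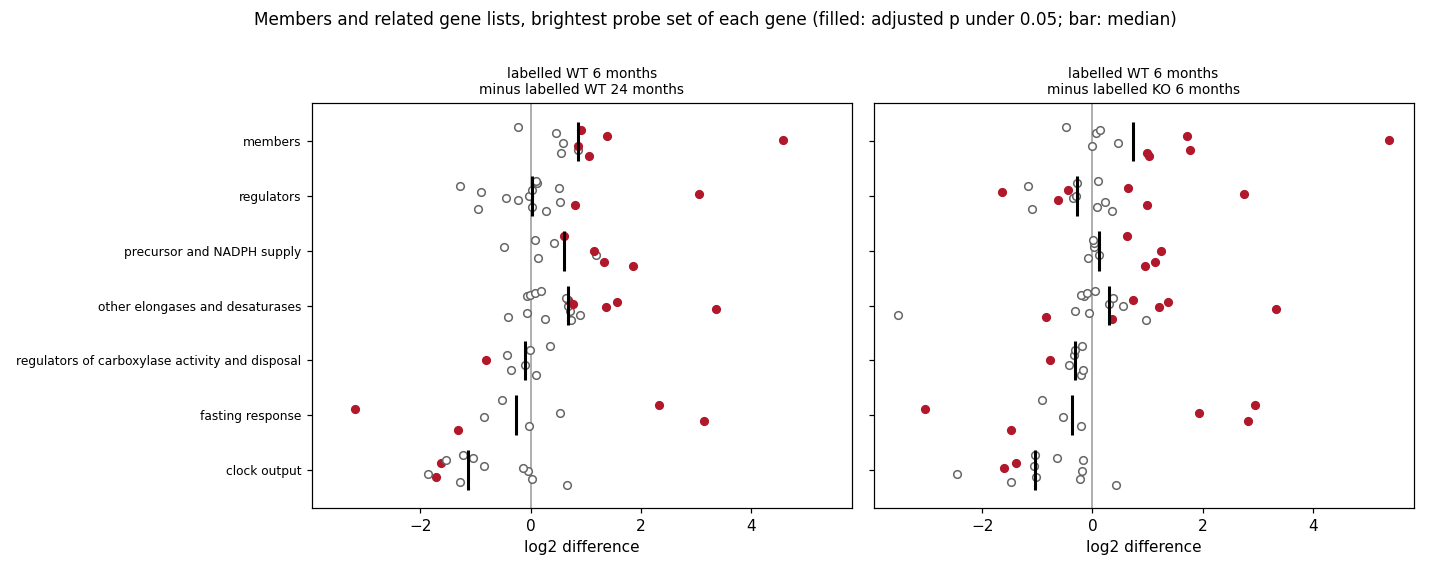
Log2 difference (horizontal axis) of the brightest probe set of each gene, for the 10 members and 6 related gene lists (rows), with the samples labelled WT 6 months minus those labelled WT 24 months on the left and minus those labelled KO 6 months on the right. Filled points passed an adjusted p of 0.05 in limma and black bars are list medians, which for the members are 0.86 and 0.73.

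Feeding state and time of day set these genes in liver, and neither is given per animal in the sources used here, so fasting and clock genes were read beside the members. Of 8 fasting genes measured, 2 were higher and 2 lower against labelled WT 24 months, and 3 were higher and 2 lower against labelled KO 6 months (median -0.27 and -0.37). Pck1, the gluconeogenic enzyme, was lower in the samples labelled WT 6 months (-3.19 from labelled WT 24 months and -3.04 from labelled KO 6 months) and so was Angptl4 (-1.32 and -1.47), an inhibitor of lipoprotein lipase. In the same comparisons Fgf21, a hormone of fasting (3.15 and 2.83), and Pdk4, which blocks pyruvate oxidation (2.33 and 2.96), were higher. Igfbp1, which insulin lowers, was higher against labelled KO 6 months (1.93), and it was lower in the samples labelled KO 24 months tumor than in those labelled WT 24 months (-4.01, adjusted p = 0.015), the only gene of these 6 lists called with labelled KO 24 months tumor on top. Of 12 clock genes, 2 were lower and 0 higher in each comparison (median -1.14 and -1.03). Per1 and Cry1 were lower against labelled WT 24 months (-1.62 and -1.71), and Per1 and Nr1d1 against labelled KO 6 months (-1.39 and -1.60). Their part in the members' differences was not tested.

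Markers of other cells moved with the same arrays. The 7 hepatocyte markers measured were bright in all 12 arrays, as the liver label implies, and summed to between 17.46 and 17.66 in log2 intensity. Alb, Apoa1, Apoa2, Ttr and Cyp2e1 carry most of that sum with group means of 14.54 to 15.16, close to the highest value in the files (15.32), so its narrow range says little about the share of hepatocytes. Tat alone was called (-1.12 and -1.36 in the samples labelled WT 6 months). Sinusoidal endothelium markers were lower there, 6 of 7 against labelled WT 24 months and 5 of 7 against labelled KO 6 months, with sums of 9.90 to 10.57 in the samples labelled WT 6 months and 11.21 to 12.33 in the other arrays. Stellate and matrix markers were lower for 3 of 8 (Reln, Pdgfrb and Des) in both comparisons, with sums of 9.48 to 10.48 in the samples labelled WT 6 months and 10.64 to 11.38 in the others. Proliferation genes were higher, 4 of 5 and 5 of 5, with sums of 9.46 to 10.10 in the samples labelled WT 6 months, 7.84 to 8.08 in those labelled KO 24 months tumor, 7.35 to 7.82 in those labelled KO 6 months and 8.64 to 8.94 in those labelled WT 24 months. Of 5 biliary markers, Krt7 was lower against labelled KO 6 months (-0.49). Their part in the results was not tested.

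Adipocytes express several of the members, so their markers were read too. In limma 0 of the 4 adipocyte markers measured were called, and 0 had an unadjusted p under 0.05 with the samples labelled WT 6 months on top. The sums ran from 7.67 to 9.04 in the samples labelled WT 6 months, 7.97 to 8.06 in those labelled KO 24 months tumor, 7.91 to 8.15 in those labelled KO 6 months and 7.64 to 8.93 in those labelled WT 24 months. The defining markers Adipoq and Lep averaged 3.56 and 3.68 in the samples labelled WT 6 months and between 3.48 and 3.71 in the other groups, near the lowest value in the files (2.82). The other 2 were well above it. Fabp4, a fatty acid carrier that macrophages and endothelium also express, averaged 7.77 ± 1.06 in the samples labelled WT 6 months, 7.07 ± 0.17 in those labelled KO 24 months tumor, 7.13 ± 0.16 in those labelled KO 6 months and 7.36 ± 1.19 in those labelled WT 24 months (SD, n = 3 each), so the groups overlapped (differences of 0.42 from labelled WT 24 months and 0.65 from labelled KO 6 months, adjusted p = 0.78 and 0.51). Retn averaged 6.39 in the samples labelled WT 6 months and between 6.30 and 6.65 in the other groups. Their part in the results was not tested. Macrophage and Kupffer cell markers summed to 11.78 to 12.49 in the samples labelled WT 6 months, 11.15 to 11.53 in those labelled KO 24 months tumor and 11.71 to 11.95 in those labelled KO 6 months, against 11.95 to 15.46 in those labelled WT 24 months, with Clec4f alone called (-2.37 against labelled WT 24 months). Lymphocyte sums were 8.72 to 9.30 in the samples labelled WT 6 months and 8.40 to 8.88 in both groups labelled KO, against 8.59 to 11.11 in those labelled WT 24 months, the highest in replicate 3, with Cd79a alone called (-0.51 against labelled KO 6 months). Without replicate 3 labelled WT 24 months, the members called higher against that label were 12 of 25 (4.94% of all).

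**Figure D5:**
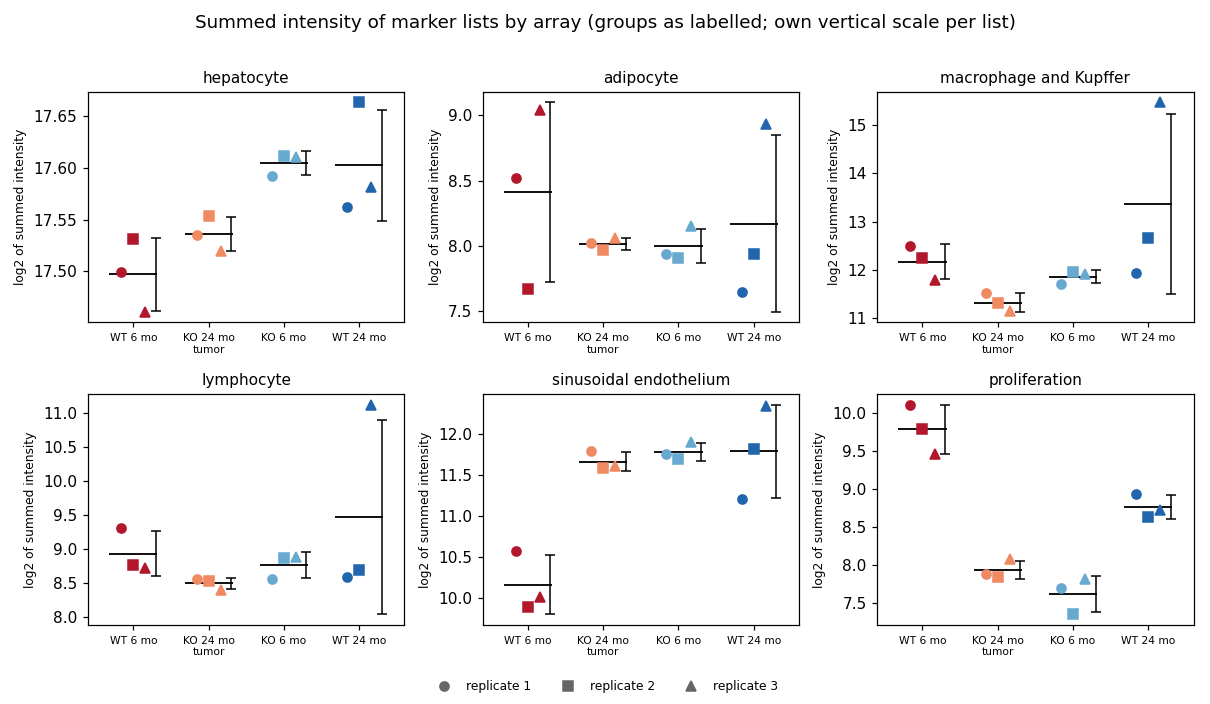
Log2 of the summed intensity (vertical axis, own scale for each list) of 6 marker lists in the 12 arrays, grouped by label, with symbols for the replicate number, bars for group means and whiskers for the SD of 3 arrays. Endothelial sums are lowest and proliferation sums highest in the samples labelled WT 6 months, hepatocyte sums span 17.46 to 17.66, and macrophage and lymphocyte sums peak in replicate 3 labelled WT 24 months.

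The genes most like Scd2 over the 12 arrays, by Pearson's r between brightest probe sets, were Cpe (r = 0.98), Tnfrsf19 (0.98), Dcbld2 (0.98), Nfe2 (0.97) and Cd2ap (0.97). Cpe, a peptidase that trims prohormones, averaged 10.91 in the samples labelled WT 6 months, 4.06 in those labelled KO 24 months tumor, 4.45 in those labelled KO 6 months and 6.27 in those labelled WT 24 months. Over the 9 arrays not labelled WT 6 months, r with Scd2 was 0.93 for Cpe and between 0.72 and 0.87 for the other 4. For Srebf1 they were Mcrip2 (r = 0.94), Coq7 (0.93), Elac2 (0.92), Tk1 (0.92) and Opa1 (0.92), with r between 0.90 and 0.96 over the 9 other arrays. Among the members over those 9 arrays, Fasn ran closest to Elovl6 (r = 0.75) and Acaca (0.75), and its r with Srebf1 was 0.41. Replicate 3 labelled WT 24 months lay below the others of its label in Fasn (10.76 against 12.01 and 12.05), Elovl6 (9.15 against 9.93 and 9.95) and Acaca (9.92 against 10.61 and 10.68). The r without that array was not computed. The r values describe 12 arrays in 4 groups, share the same normalization, and carry no test.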

How the data were processed

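Liver RNA of 12 male mice, 3 per label, was measured on Affymetrix mouse genome arrays. The deposited values are log2 intensities, which the authors made by RMA with simpleaffy in R (version not given in the sources used here). RMA corrects background, equalizes quantiles between arrays and summarizes each probe set, which compresses differences of dim probe sets. Array medians lay between 5.41 and 5.45.

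Differences were fitted with limma 3.58.1 in R 4.3.3 on 4 group means over all 12 arrays, with Benjamini-Hochberg adjustment over 45037 probe sets, 64 control probe sets left out. The study called genes with SAM at a fold of 3, and SAM was not run here. An exact permutation test of 3 against 3 arrays cannot go below p = 0.1, two-sided. The labels give biological replicates, so p-values rest on the spread between animals. That spread is estimated for each probe set over all 4 groups and drawn toward that of the other probe sets. It is therefore not the spread of the groups compared alone. Probe sets were named by the platform annotation, 34945 with 1 gene, 932 with several and 9160 with none listed, and members are those naming 1 gene. The fit was tested on simulated data. Figures were drawn with matplotlib 3.10.9.

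Members, lists and tests were chosen with earlier results of these data known. Genes named are all members, Iqgap2 and Afp as label checks, from each list the called genes (all where 5 or fewer, otherwise the 3 with the smallest adjusted p, with the rest named after their values were seen), called cell type markers, and the 5 genes most like Scd2 and Srebf1. Alternatives were folds of 2 and 3, single or averaged probe sets per gene, a filter on dim probe sets, and centering on the array median or on housekeeping genes. Others were a trended and robust prior for the spread in limma, only the groups compared, a replicate block and each array left out. For Iqgap2 the alternative was its second probe set. The 3 housekeeping genes measured, Actb, Gusb and Hprt, were not all level. Hprt averaged 11.08 in labelled WT 6 months, 10.57 in labelled KO 24 months tumor, 10.595 in labelled KO 6 months and 10.52 in labelled WT 24 months. Gusb averaged 8.30, 9.01, 9.08 and 9.32 in the same order.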

Additional observations from a re-analysis of the deposited data

Results flagged for a closer look

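The age effect on Scd2 differed between the genotypes as labelled, tested as the interaction in limma over all probe sets. The difference of differences, labelled KO 24 months tumor minus labelled KO 6 months less labelled WT 24 months minus labelled WT 6 months, was 3.67 for the brightest probe set (adjusted p = 0.014), 4.27 for the next in brightness (adjusted p = 3.5e-04) and 3.08 for the dimmest (adjusted p = 3.1e-05). The simple differences behind it were -0.91 for labelled KO 24 months tumor minus labelled KO 6 months, which was not called, and 4.58 for labelled WT 6 months minus labelled WT 24 months, on the brightest probe set.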

How the results depend on the processing

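Of 221 values of called gene differences under alternatives, 205 kept their call, 16 lost it and 0 changed direction. Of 774 values of differences not called, 738 stayed so, 20 became called and 16 changed direction. Against labelled WT 24 months, the samples labelled WT 6 months had 13 member probe sets higher (4.96% of all probe sets). At a fold of 3 there were 3 (1.65% of all, in either direction), at a fold of 2 there were 7, and with only the groups compared 4 (1.92% of all). With each array left out it was 7 to 14 (7 and 4.01% of all without replicate 2 labelled WT 6 months, 14 and 4.18% without replicate 1 labelled WT 24 months). By genes the count was 5 (6.37% of all genes), with 1 at a fold of 3, 3 at a fold of 2 and 2 with only the groups compared (2.46%). It was 3 to 8 genes with each array left out. Against labelled KO 6 months the genes higher were 5 (7.48% of all genes), and 3 at a fold of 3 (4 to 5 with each array left out). The single probe set lower there (6.08% of all probe sets) became 0 at a fold of 3, 0 at a fold of 2, 0 with dim probe sets removed and 0 with arrays centered on housekeeping genes. It became 2 with only the groups compared, and 0 to 2 with each array left out. Genes lower there were 0, with 1 in the fit of only the groups compared (Srebf1, -0.48, adjusted p = 0.026) and 0 to 1 with each array left out. For labelled KO 24 months tumor against labelled WT 24 months, 0 probe sets and 0 genes became 1 and 1 with housekeeping centering (Scd2, -1.68, adjusted p = 0.018) and 0 to 2 with each array left out (2 without replicate 3 labelled WT 24 months, with 0.198% of all probe sets called lower). Against labelled KO 6 months, 0 became 1 probe set and 1 gene with only the groups compared (Scd2, -0.91, adjusted p = 0.020). In the interaction the 3 probe sets (1.73% of all called higher) became 5 with housekeeping centering and 3 to 5 with each array left out. The 1 gene became 2 with housekeeping centering (Elovl6, 1.54, adjusted p = 0.041) and 2 with the probe sets of each gene averaged, and was 1 to 2 with each array left out. Shares over all were not computed for a fold of 2, housekeeping centering, averaged probe sets, dim probe sets removed or the replicate block, nor by genes at a fold of 3. With only the groups compared they were computed only for labelled WT 6 months against labelled WT 24 months. Counts without a share have no baseline.

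Changes of direction were small and none of these values was called. With housekeeping centering, Acly against labelled KO 6 months was 0.084 and the interaction of Srebf1 0.099. With each array left out, the differences of labelled WT 6 months ran from -0.45 to 0.036 for Srebf1 against labelled WT 24 months, and against labelled KO 6 months from -0.097 to 0.095 for Acly, from -0.022 to 0.23 for Fads1 and from -0.035 to 0.32 for Fads2. Elovl6 in labelled KO 24 months tumor against labelled KO 6 months ran from -0.13 to 0.15, and the interaction of Srebf1 from -0.26 to 0.22. The dimmer Iqgap2 probe set gave 0.0050 for labelled KO 24 months tumor against labelled WT 24 months and 0.36 in the interaction. The causes were not tested.

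Same-numbered arrays of 2 groups did not deviate together (r between -0.24 and 0.19, and 3 of 12 correlated best with their own number). No sign of pairing by number was seen, but with 3 arrays per label this check cannot exclude it. With the replicate block the count against labelled WT 24 months was 12 probe sets and 5 genes, that against labelled KO 6 months 9 and 5 higher and 1 and 0 lower, and no gene call changed. Precision is limited by 3 arrays per label.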
